A study of Mus musculus with 2 samples.

Results

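The TRIM (tripartite motif) genes were followed through the first day of maturation of mouse Extensively Self Renewing Erythroblasts (ESREs), which are precursors of red cells at an immature stage that go on dividing when cultured. The family was taken as the rows whose gene symbol is Trim followed by a digit, with 1 such row left out, which gave 61 of the 25791 gene rows. RNA was sequenced from an expansion group of proliferating ESREs and from a maturation group taken 1 day after the start of maturation. Both groups carry the labels' genetic background C57/bl6, while the series title names transgenic β-Yac mice as the source of ESREs. The growth protocol cites a derivation from the early fetus, and how many embryos or cultures were used is not stated in those sources. Duplicates are mentioned for each stage, but each gene has 1 deposited FPKM (fragments per kilobase of transcript scaled also by the mapped fragments of the library) for each group. Differences between groups therefore could not be checked against replicates and none carries an SD or a p-value. The depth is unknown. In such bulk samples, fewer cells of a type and less RNA per cell cannot be told apart.

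TRIM proteins share an amino-terminal RING finger, 1 or more B-box zinc fingers and a coiled coil. The RING finger makes most of them E3 ubiquitin ligases, which choose the proteins that are marked with ubiquitin, and the carboxy-terminal domain usually binds the target. In red cell precursors Trim10, also called HERF1, is known as a RING protein needed for late differentiation, Trim58 as the ligase that targets the dynein motor, and Trim28, also called KAP1, as the co-repressor that KRAB zinc finger proteins bring to DNA.

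Gene activity begins at the promoter, so the 250 bases before the annotated start of some of the genes treated below are shown first. They come from RefSeq on build GRCm38.p6 and are written 5′ to 3′ on the gene's own strand. No promoter was found for Trim35, the member with the lowest ratio, or for Trim11 and Trim8. The pair with known erythroid roles is Trim10 (chr17:36869324-36869573, plus strand) and Trim58 (chr11:58640215-58640464, plus strand), in which capitals mark a GATA motif, the letters bound by GATA1, searched on both strands as AGATAA with T also allowed as the first base and G as the last.
Trim10: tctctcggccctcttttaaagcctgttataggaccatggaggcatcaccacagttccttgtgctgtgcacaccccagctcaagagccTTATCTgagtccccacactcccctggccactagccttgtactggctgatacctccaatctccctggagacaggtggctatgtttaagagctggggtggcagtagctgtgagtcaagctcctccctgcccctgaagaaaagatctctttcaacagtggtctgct
Trim58: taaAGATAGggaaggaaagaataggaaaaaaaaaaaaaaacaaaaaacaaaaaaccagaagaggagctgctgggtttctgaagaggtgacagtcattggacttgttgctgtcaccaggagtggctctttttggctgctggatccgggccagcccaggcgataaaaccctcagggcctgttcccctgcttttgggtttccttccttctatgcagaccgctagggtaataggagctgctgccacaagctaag
Trim10 held 1 match, on the opposite strand and starting 163 bases before the start, and Trim58 held 1 match at 247 bases. Such a match occurred in 26.5% of all 32851 promoters in the table, and in 3 of 16 expressed and 6 of 31 other TRIM genes with a promoter, so the motif was no more frequent here than elsewhere. The letters CCNCNCCC, a CACCC-type motif of the kind bound by Kruppel-like factors, occurred in neither promoter and in 45.9% of all promoters.

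The promoters of Trim28 (chr7:13023902-13024151, plus strand), the highest member, and Trim59 (chr3:69044743-69044992, minus strand), which stood higher in maturation, are shown with CCNCNCCC in capitals for Trim28 and with CCAAT and TTTGAA in capitals for Trim59, searched on both strands. CCAAT boxes and TTTGAA, the letters of the CHR element, are known from promoters of cell cycle genes.
Trim28: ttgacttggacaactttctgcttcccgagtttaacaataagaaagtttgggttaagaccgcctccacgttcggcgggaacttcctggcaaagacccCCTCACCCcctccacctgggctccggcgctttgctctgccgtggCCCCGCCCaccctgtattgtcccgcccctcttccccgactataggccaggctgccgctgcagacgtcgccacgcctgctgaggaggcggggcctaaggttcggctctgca
Trim59: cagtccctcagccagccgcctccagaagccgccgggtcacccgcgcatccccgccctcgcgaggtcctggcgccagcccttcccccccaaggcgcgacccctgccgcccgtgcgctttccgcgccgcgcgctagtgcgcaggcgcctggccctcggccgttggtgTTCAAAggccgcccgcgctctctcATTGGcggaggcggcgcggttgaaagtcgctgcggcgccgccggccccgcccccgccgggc
Trim59 held ATTGG, which is CCAAT on the opposite strand, starting 61 bases before the start. It also held TTCAAA, which is TTTGAA on the opposite strand, at 85 bases. CCAAT was found in 33.8% and TTTGAA in 15.99% of all promoters. Trim28 held matches to CCNCNCCC at 154 and 110 bases. The motifs to mark were chosen gene by gene, and other matches are left unmarked. Trim59 also held 3 matches to CCNCNCCC, which occurred in 45.9% of all promoters, and Trim10 and Trim58 each held 1 match to CCAAT.

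Trim5 (chr7:104288107-104288356, minus strand) and Trim12a (chr7:104315496-104315745, minus strand), the RefSeq name of the row Trim12, are neighbouring copies on chromosome 7, shown to compare copies whose values were alike. Capitals mark CCAAT on either strand and, on either strand, an interferon-stimulated response element, searched as GAAA and GAAA with any pair of bases between them.
Trim5: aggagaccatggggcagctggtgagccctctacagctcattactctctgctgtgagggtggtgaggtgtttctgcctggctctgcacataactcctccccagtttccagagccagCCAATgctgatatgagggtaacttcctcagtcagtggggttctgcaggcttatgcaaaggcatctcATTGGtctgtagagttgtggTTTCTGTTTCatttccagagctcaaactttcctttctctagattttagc
Trim12a: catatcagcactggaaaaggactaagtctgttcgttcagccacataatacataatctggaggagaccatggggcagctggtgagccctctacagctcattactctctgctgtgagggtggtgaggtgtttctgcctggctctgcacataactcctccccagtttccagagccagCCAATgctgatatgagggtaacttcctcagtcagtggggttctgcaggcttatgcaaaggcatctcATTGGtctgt
Where the windows overlapped, 191 of 191 bases were identical, and they differed in where RefSeq sets the start. The window of Trim5 held the interferon element at 49 bases before the start, in the stretch that the window of Trim12a does not reach. This element occurred in 2.98% of all promoters and in 3 of the 47 TRIM genes with a promoter, which were Trim5, Trim26 and Trim30.

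Most members did not reach 1 FPKM in these cells, as was the case for most rows. Of 61 members, 19 (31.1%) reached 1 FPKM in at least 1 group and are called expressed here, against 35.9% of all rows. A further 9 members lay between 0.1 and 1 FPKM at their higher value, and 33 stayed under 0.1 FPKM in both groups. The shares of all rows at those lower levels were not computed. The highest value among those 33 was 0.0901 FPKM, for Trim46 in expansion. Listed at 0 in expansion were 4 members, Trim31, Trim42, Trim43c and Trim55, and 3 others, Trim29, Trim40 and Trim61, were listed at 0 in maturation. No member was listed at 0 in both groups. Nearest to the limit, Trim26 was expressed with 1.05 FPKM and Trim58 was not, with 0.876 FPKM.

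**Figure D1:**
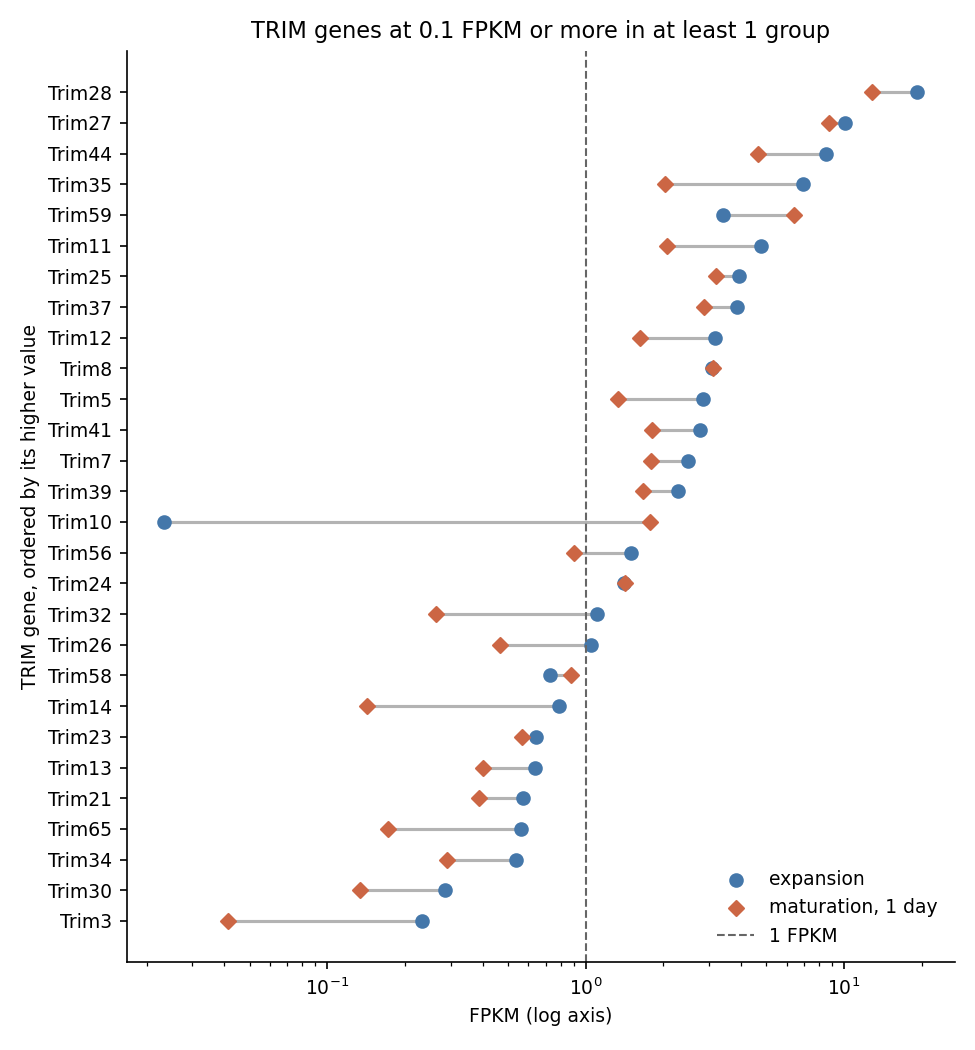
FPKM of the 28 TRIM genes that reached 0.1 FPKM, on a log axis, with circles for expansion, diamonds for maturation and a dashed line at 1 FPKM; each point is 1 deposited value. Diamonds lie left of circles for most genes. Trim10, Trim59 and, by less, Trim58 lie the other way, and Trim8 and Trim24 are nearly equal. Trim10 spans from 0.0234 to 1.78 FPKM.

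The expressed members mostly had lower FPKM after 1 day of maturation, as did most expressed rows. A log2 ratio of maturation over expansion, computed as log2(FPKM + 1), was below 0 for 15 of the 19 (78.9%) and above 0 for 4, against 74.1% of the 9263 expressed rows below 0. The median ratio was -0.39 for the expressed members and -0.25 for all expressed rows, and 13 of the 19 members lay below the latter. At least 2-fold higher on this scale (a log2 ratio of 1 or more) was 1 member, Trim10, against 3.13% of all expressed rows, and at least 2-fold lower was 1 member, Trim35, against 6.7%. With 1 of 19 in each direction (5.26%) the family was near the background. On the FPKM values themselves, without the added 1, the members at least 2-fold lower were 5 of 19 (26.3%), namely Trim35, Trim32, Trim11, Trim26 and Trim5, against 15.1% of expressed rows. Trim32 and Trim26, like Trim56 whose ratio is the family median, passed the limit of 1 FPKM through expansion alone and Trim10 through maturation alone, so no excess over the background is read from these counts. In the other direction Trim10 remained the 1 member, against 4.24%. Summed over all 61 members, the family stood at 88.1 FPKM in expansion and 62.5 in maturation, which is 70.9% of the expansion value. FPKM is scaled by the mapped fragments, so these are relative values and not amounts of RNA per cell. The globin rows Hba-a1 (1951 to 8370 FPKM) and Hbb-b1 (1059 to 4739) were higher in maturation. Their part in the lower values of other rows was not tested.

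**Figure D2:**
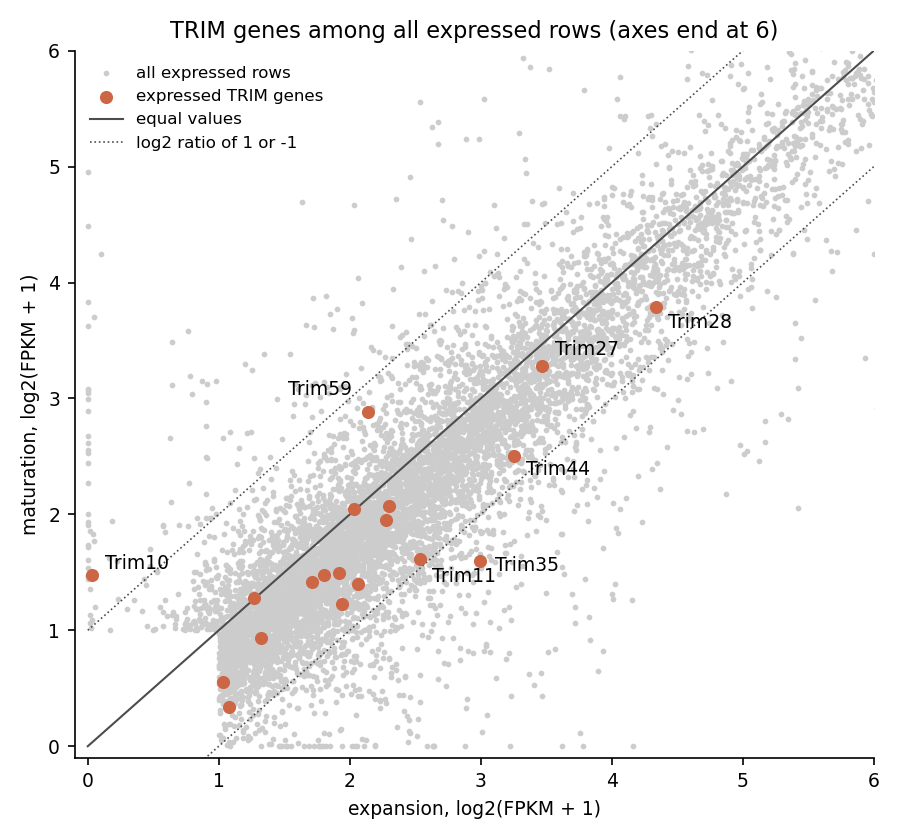
Each point is 1 expressed row, with log2(FPKM + 1) in expansion on the horizontal and in maturation on the vertical axis. TRIM genes are coloured over the expressed rows, and dotted lines mark log2 ratios of 1 and -1. The axes end below the highest values, so some of the 9263 rows are not shown. Of the 19 TRIM genes, Trim10 lies above the upper and Trim35 below the lower dotted line.

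Of the members with known erythroid roles, Trim10 was almost absent before maturation and measurable after it. Trim10 (mm9 chr17:37006519-37014778) had 0.0234 FPKM in expansion against 1.78 in maturation, a log2 ratio of 1.44, and took place 172 from the top among the 9263 expressed rows. The ratio of its FPKM values was 76.1, which rests on an expansion value near 0 and has no known error. It passed the expression limit through maturation alone. In the order of the family by level, the highest first, it moved from place 37 to place 12. Trim58 (chr11:58453967-58465906) was at 0.726 and 0.876 FPKM, 1.21-fold, and below 1 FPKM in both groups. The maturation value of Trim10 was thus above that of Trim58, while in expansion the order was the other way round. The markers given for the family were Trim10, Trim58 and Trim28, and of these Trim58 did not reach 1 FPKM.

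The chromatin regulators with a PHD finger and a bromodomain held the highest member. Trim28 (chr7:13609501-13616383) stood at 19.2 FPKM in expansion against 12.8 in maturation, a log2 ratio of -0.55, and was first in both groups with 21.8% and 20.5% of the family's summed FPKM. A second row, LOC100502802, has the same locus in the table and stood at 19.0 and 16.6 FPKM, so fragments may be divided between the rows. The sum of both was 38.2 and 29.4 FPKM, a log2 ratio of -0.37. Trim24, known as TIF1-alpha, a nuclear receptor cofactor and p53 ligase, was at 1.41 and 1.42 FPKM and so nearly equal in both groups. Trim66, the testis-rich member of this class, was at 0.00609 and 0.00772 FPKM.

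Trim28 acts by bringing the histone methyltransferase SETDB1, HP1 proteins and the NuRD complex to DNA, and a list of 22 such partner genes was examined beside it. Of these, 21 were expressed, 1 of them past 2-fold upward and none downward, and their median log2 ratio was -0.21. Of all expressed rows 3.13% passed 2-fold upward and 6.7% downward, so 1 of 21 is near the background. The higher gene was Uhrf1, which guides maintenance DNA methylation, with 9.08 FPKM in expansion against 21.7 in maturation. The partner with the highest level was Cbx3, an HP1 protein, at 27.6 and 29.4 FPKM. Below 0 were 17 of the 21, against 74.1% of all expressed rows.

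The largest class, with a PRY-SPRY or SPRY domain at the carboxy terminus, had 33 members, of which 11 were expressed and 10 of those were lower in maturation, in a table where 74.1% of expressed rows were lower. Their median log2 ratio was -0.42, against -0.25 for all expressed rows. Trim27, a ligase of the nucleus and of endosomes, was second of the family in both groups, at 10.1 and 8.74 FPKM. Its log2 ratio of -0.19 was above the median of all expressed rows.

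Trim35 had the lowest ratio of the family. This gene, also called Hls5, was found in a switch of erythroid cells to a myeloid form and is known to bind GATA1. Trim35 (chr14:66914164-66930261) had 6.96 FPKM in expansion against 2.03 in maturation, 3.44-fold lower in maturation, with a log2 ratio of -1.40. It held place 4 of the family in expansion and place 9 in maturation. Trim11 (chr11:58791618-58804960), a ligase that also acts on misfolded proteins, was at 4.80 and 2.06 FPKM, a log2 ratio of -0.92. Both were thus among the highest members in expansion and near 2 FPKM in maturation.

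Markers of other cell types were examined beside these values, because some were lower in maturation too. The megakaryocyte markers, 3 of 5 expressed, summed to 22.03 FPKM in expansion and 2.32 in maturation. Itga2b (5.15 to 0.996 FPKM), Gp5 (9.63 to 0.438) and Gp1ba (7.22 to 0.845) carried the sum, while Pf4 was at 0.0333 and 0 and Vwf, at 0.00475 and 0.0383, went the other way. The mast cell markers, 3 of 4 expressed, summed to 15.7 and 0.790 FPKM, with Cpa3 at 0.107 and 0. Macrophage markers, 1 of 6 expressed, summed to 1.35 and 0.605 FPKM, with C1qa at 0.00972 and 0 and C1qb at 0 and 0.00489, and none of 3 lymphocyte markers was expressed. All 7 erythroid markers were expressed and higher in maturation, among them Gata1 at 18.8 and 37.4 FPKM, so the defining genes of the labelled cell type were present. The part that other cells have in the lower TRIM values was not tested.

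The remaining expressed SPRY genes sat between 1 and 4 FPKM at their higher value. Trim25, the ligase that acts on the RNA sensor RIG-I, was at 3.92 and 3.20 FPKM. Trim41, a protein kinase C ligase, was at 2.77 and 1.81, and its neighbour Trim7, which binds glycogenin, at 2.50 and 1.79 FPKM. Trim39, which stabilises the apoptosis protein MOAP1, was at 2.27 and 1.67 FPKM. Trim26, a regulator of antiviral signalling, was at 1.05 and 0.467 FPKM and passed the limit in expansion alone. All 5 were lower in maturation, as were 74.1% of expressed rows, so no trend of the class is read from this count. Their log2 ratios ran from -0.48 for Trim26 to -0.23 for Trim25. That of Trim25 was less negative than the background median of -0.25.

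Of the members in the interferon-responsive group on chromosome 7, Trim5 and Trim12 carried most of the signal. Their products are related to the primate restriction factor that blocks retroviral capsids. Trim5 (chr7:111413000-111436646) had 2.84 FPKM in expansion against 1.33 in maturation, and Trim12 (chr7:111448411-111464009) at 3.18 and 1.63. The ratios of these neighbours were alike, with log2 ratios of -0.72 and -0.67, and their sum was 2.03-fold lower in maturation. Trim34, at 0.540 and 0.291 FPKM, Trim30, at 0.286 and 0.133, and Trim21, the cytosolic antibody receptor, at 0.572 and 0.386, were below 1 FPKM and also lower in maturation. Trim6 was near 0, at 0.0410 and 0.0293 FPKM. All 6 were lower in maturation. Of expressed rows 74.1% were lower, but 4 of the 6 were below 1 FPKM in both groups, where that share was not computed. The copies share sequence, as 38.1% of the 50-base words of the longest Trim5 transcript also occur in another gene, led by Trim12c and Trim12a, and 23.5% of those of Trim12 and 41.3% of those of Trim34 do so. The split between these copies is uncertain, whereas Trim10 shared 0% of its 50-base words with any other gene in the GENCODE transcripts.

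Signalling genes that work with these ligases were listed as well. Of 18 RIG-I and NF-kB signalling partners, 13 were expressed, none past 2-fold upward and 1 downward, and their median log2 ratio was -0.30. RIG-I itself, listed as Ddx58 (0.140 and 0.0310 FPKM), and the RNA sensor gene Ifih1 (0.873 and 0.711) were below 1 FPKM in both groups. These 2 were named after their values were seen. The background shares of 3.13% and 6.7% apply here too, and 1 of 13 is near them. The lower gene was Nfkb1, which encodes the NF-kB subunit p105, at 10.3 and 2.86 FPKM, and the next highest in expansion was the subunit gene Rela at 5.94 and 3.36, while in maturation both stood below Tab2, listed as Map3k7ip2, at 4.65.

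Outside the SPRY class, Trim59 was the other member with a ratio well above 0. Trim59 (chr3:68839216-68848664), a membrane-anchored ligase, had 3.41 FPKM in expansion against 6.40 in maturation, a log2 ratio of 0.75 and a fold of 1.88. It moved from place 8 to place 3 of the family. Of its 50-base words 6.61% also occur in the genes Gm15381 and Gm4921. Trim13, the other member with a transmembrane segment and a ligase of the endoplasmic reticulum, was at 0.637 and 0.399 FPKM, at a locus the table lists also for Dleu2, Kcnrg, LOC100504051 and the microRNA rows Mir15a and Mir16-1.

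Members with no further carboxy-terminal domain numbered 8, of which 3 were expressed. Trim44, which has no RING finger and is known to stabilise other TRIM proteins, held place 3 of the family in expansion with 8.52 FPKM and place 4 in maturation at 4.66, a log2 ratio of -0.75. Trim8, which binds SOCS1 and acts in cytokine signalling, was at 3.09 and 3.13 FPKM, about equal in both groups. Trim56, a ligase of the STING pathway, was at 1.50 and 0.905 FPKM. Of 5 members without a RING finger Trim44 was the 1 expressed, and Trim14, a mitochondrial antiviral adaptor, followed at 0.787 and 0.143 FPKM.

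The remaining classes had 1 expressed member each or none. Trim37, with a MATH domain, a ligase of peroxisomes and centrosomes, was at 3.85 and 2.87 FPKM. Trim32, with NHL repeats, known from limb-girdle muscular dystrophy, was at 1.11 and 0.264 FPKM, and its locus in the table is also that of Astn2, at 0.0246 and 0.0284. The other NHL members were lower, with Trim3 at 0.232 and 0.0413 FPKM and Trim71, a stem cell protein, at 0.0404 and 0.0522. Trim23, with an ARF domain, was at 0.642 and 0.568 FPKM. Trim65, a SPRY ligase for the RNA sensor MDA5, was at 0.561 and 0.172 FPKM. None of the 8 members with a COS box, a class with many microtubule-binding proteins of nerve and muscle, was expressed. Of all rows 35.9% were expressed, so most rows were not. Together the 8 summed to 0.192 and 0.150 FPKM. Of the 9 members between 0.1 and 1 FPKM, 8 were lower in maturation and Trim58 was the exception. The share of all rows at this level that were lower was not computed, so no trend of the family is read from this count.

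Neighbours in the genome did not share a level or a direction throughout. With gaps of at most 100000 bases, 19 members fell into 6 clusters. No member was higher in maturation in the clusters of Trim41 and Trim7, of Trim47 and Trim65, and of Trim5 and its neighbours. The other clusters held members above and below 0, of which Trim26, Trim10 and Trim11 were expressed. In the cluster of 5 on chromosome 17, from 36974086 to 37047162 on mm9, Trim26, next in the row to Trim15 and Trim10, was lower in maturation while Trim10 was higher. Trim15, at 0.0104 and 0.0103 FPKM, Trim40, at 0.00192 and 0, and Trim31, at 0 and 0.00187, lay near 0 on either side of Trim10. On chromosome 11 Trim17 was at 0.0436 and 0.0497 FPKM beside Trim11, with 18.3% of its 50-base words shared with other genes, led by the histone gene Hist3h2a. Trim60 and Trim61 share 1 locus on chromosome 8 and were under 0.005 FPKM. Trim69 shares a locus with B2m, at 109 and 55.3 FPKM, and Trim2 with Gm6525, at 320 and 271, yet both members were below 0.01 FPKM.

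Promoter base content was compared because the rule did not use it. A promoter was found for 47 members, 44 by symbol and 3 by synonym, among them 16 of the 19 expressed. Trim8, Trim11 and Trim35 were the expressed members without one. The ratio of observed to expected CpG, which is high in CpG islands, had a median of 0.667 in the 16 expressed and 0.403 in the 31 other members, against 0.762 and 0.345 in the other rows of the table that matched by symbol. At or above 0.6 were 9 of 16 expressed members (56.3%), against 73.8% of 5743 other expressed rows. A gene with several promoters was given their mean, so Trim24, with promoters at 0.892 and 0.0807, counted at 0.487. Trim5 and Trim12, identical where their windows overlapped, were counted separately. Trim10 at 0.0570, Trim5 at 0 and Trim12 at 0.0620 had the lowest ratios of the expressed members, and Trim58 was at 0.215. Trim37 at 1.21, Trim44 at 1.19 and Trim59 at 1.04 had the highest.

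**Figure D3:**
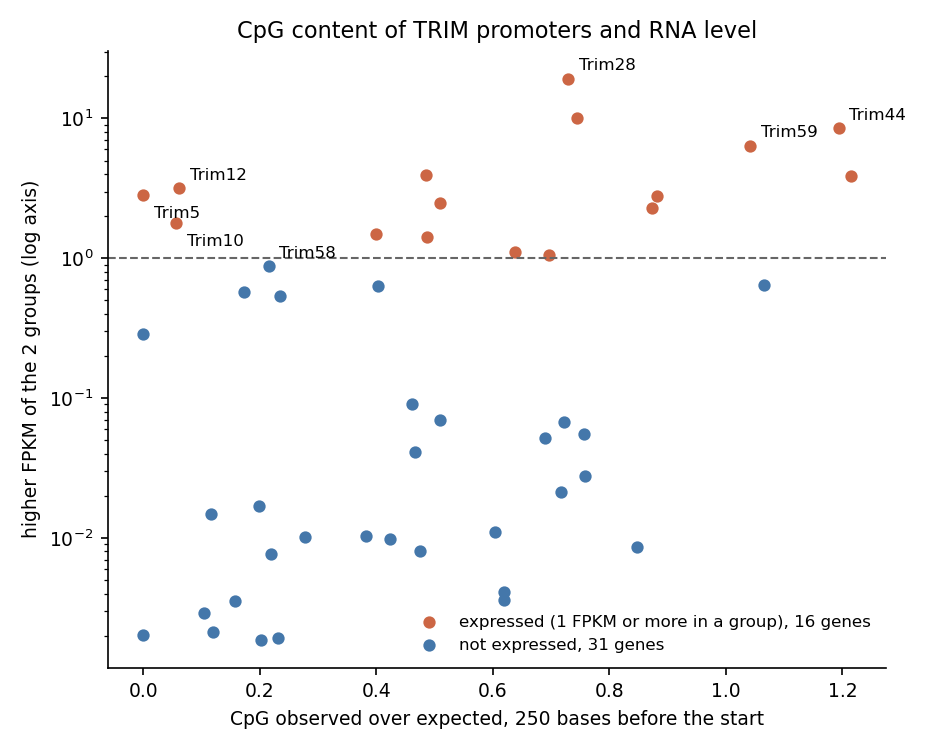
CpG observed over expected in the 250 bases before the start (horizontal, mean over a gene's promoters) against the higher FPKM of the groups (vertical, log axis) for 47 TRIM genes. A dashed line marks 1 FPKM. Expressed genes lie at both ends, with Trim5, Trim10 and Trim12 under 0.1 and Trim37, Trim44 and Trim59 above 1.

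TRIM proteins that carry other gene symbols were looked up from a list of 9, of which 2 were expressed and neither was beyond 2-fold. Of all rows 35.9% were expressed, and of those 3.13% were past 2-fold upward and 6.7% downward. Pml, the organiser of PML nuclear bodies, was at 5.51 and 3.49 FPKM, and Mid1, a microtubule-bound ligase, at 6.80 and 6.90. Their levels lie within the range of the family's higher members.

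Genes of the cytoplasmic dynein motor, which Trim58 is known to target, and of its partner dynactin were listed too. Of 28 listed genes, 25 were expressed, none was beyond 2-fold, against 3.13% of all expressed rows higher and 6.7% lower, and the median log2 ratio was -0.13, with a range from -0.74 to 0.30. The heavy chain gene Dync1h1, chosen after its values were seen, had 3.17 FPKM in expansion against 2.74 in maturation. The highest rows were the light chain copies Dynlt1c, at 28.9 and 35.2 FPKM, and Dynlt1a, at 25.6 and 31.6, which are near-identical. Cullin and RBX genes, the core of another large group of ubiquitin ligases, gave 12 expressed of 14, none beyond 2-fold and a median log2 ratio of -0.02. Tceb2, encoding elongin B, was at 44.3 and 46.2 FPKM and Ddb1, an adaptor of cullin 4, at 32.4 and 28.5. The expressed TRIM genes ranged from -1.40 to 1.44. That upper end was Trim10, which passed 1 FPKM through maturation alone, and the next highest was Trim59 at 0.75. The cullin core, with fewer expressed genes, ranged from -0.31 to 0.32, and no difference in spread is read from these extremes.

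**Figure D4:**
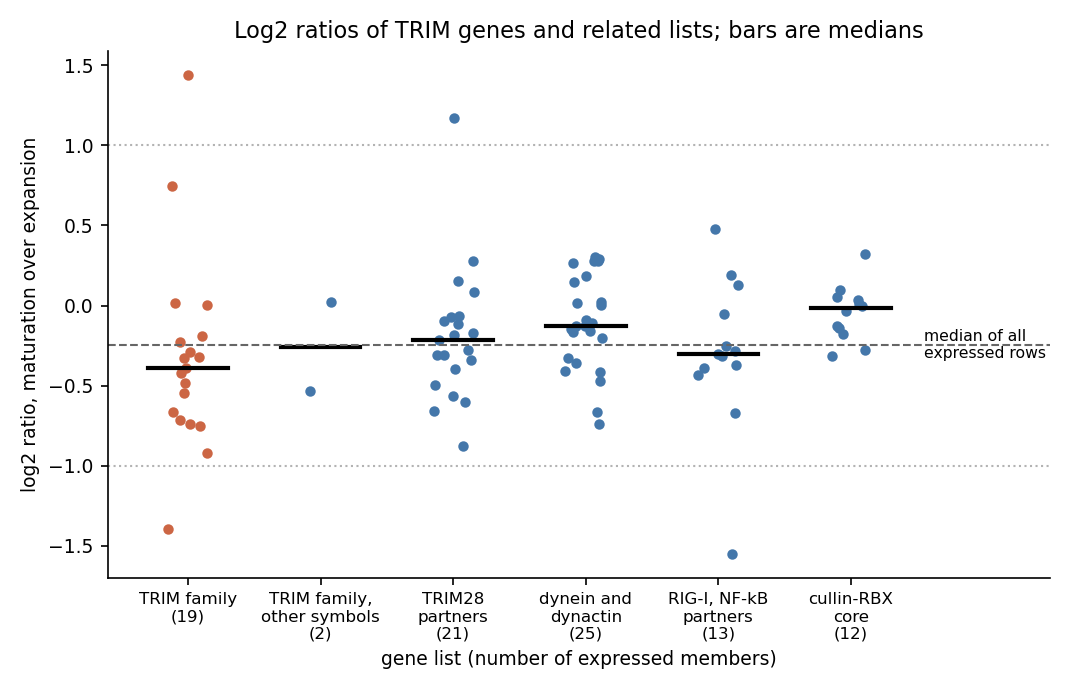
Log2 ratio of maturation over expansion for each expressed gene of 6 lists, with black bars for list medians, a dashed line for the median of all expressed rows (-0.25) and dotted lines at 1 and -1. The medians run from -0.39 for the TRIM family to -0.02 for the cullin core, and the lowest single ratio belongs to the RIG-I and NF-kB list (-1.55), followed by Trim35 (-1.40).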

How the data were processed

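The deposited table gives FPKM per gene row, 1 value for each group, as its header says. The submitters' processing notes name Cuffdiff 2.0.2 and mm9. The aligner, annotation, filters and any pooling of duplicates were not given in the sources used here. FPKM depends on the modelled transcript length and on how fragments of similar genes are divided, and no depth can be read from it. No test was made.

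Log2 ratios used log2(FPKM + 1), which understates differences of weak genes. Starts are counted from 0 in the table (6545 of 20000 rows with a RefSeq span had an end minus start equal to it, against 132 with 1 added) and are given counted from 1. Of 91 list entries, 87 matched by symbol and 4 by RefSeq synonym. Values are given for every expressed member and, of other lists, for members past 2-fold (up to 4) and the 2 highest; some of these are not reported here. Members and lists were chosen with earlier results of these data known. Words of 36, 50 and 75 bases came from GENCODE M21 transcripts. The counting step was run on simulated ratios without noise, built by the same formula, which checks the arithmetic and not the reported differences. Python 3.11.15, pandas 2.3.3 and Biopython 1.88 were used.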

Additional observations from a re-analysis of the deposited data

How the results depend on the processing

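With 1 value per group no replicate could be left out, and no sample difference could be tested. No paired analysis was possible because the table holds 1 column per group. The counts past 2-fold depend on the added constant. With a pseudocount of 0.1 there were 5 members lower, a family median of -0.58 and 2 Trim28 partners beyond 2-fold. With a pseudocount of 5 there were 0 members higher and 0 lower, a family median of -0.15 and 0 partners. With none, an alternative chosen after seeing the data, there were 5 lower, a median of -0.58, 2 partners and 1 dynein gene. Without a filter the median of all 61 members was -0.013. With a minimum of 5 FPKM, 5 members were left, 0 were higher (Trim10 was not among them) and the median was -0.55. Centring on all expressed rows shifts ratios by 0.25, after which the family median was -0.14 and Trim25 and Trim27 lay above 0, so 6 of 19 did. Rescaling to equal FPKM outside small RNA rows changed no sign among the 19. Of 42 group values under alternatives, 27 stayed near the reported one and 15 moved. Unknown depth limits every value under 1 FPKM, among them the expansion value of Trim10.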
